A study of Homo sapiens with 4 samples.

Results

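The SLC25 genes encode the mitochondrial carriers, the family of transport proteins that moves metabolites across the inner membrane of mitochondria. They were taken here as every row of the deposited count table whose symbol is SLC25A followed by a number, which gave 48 of the 39634 rows with values. Polyadenylated RNA had been sequenced in 4 libraries from BEAS-2B cells, an immortalized line of the human bronchial epithelium. The 2 libraries labelled Fer knockdown came from BEAS-2B cells carrying an shRNA (short hairpin RNA) against Fer, and the 2 control libraries from BEAS-2B cells carrying a control shRNA. Cells of both groups were grown in N2B27 medium, and no other treatment or time is given in the labels. Replicates carry numbers, but nothing in the labels says that they were separate cultures, so that the p-values reflect only how far these libraries differ, which may be technical. The labels name neither the hairpins nor whether a line was a single clone.

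FER, the gene of a cytoplasmic tyrosine kinase, had 404 and 535 counts in the Fer knockdown-labelled libraries, against 334 and 459 counts in the control libraries. Its level averaged 19 ± 1.66 CPM (counts per 1000000 counts of the library, on the scale of edgeR's TMM normalization) in the Fer knockdown-labelled libraries and 18.8 ± 3.42 CPM in the control libraries (SD, n = 2 each). The label did not go with lower FER mRNA: the fitted log2 fold change stood at 0.02 ± 0.17 (SE; 95% interval -0.37 to 0.40; adjusted p = 0.976), and the groups are called by their labels below. Without control replicate 1 the value was -0.16, and without Fer knockdown replicate 2 it was -0.08.

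Most mitochondrial carriers exchange a molecule of the matrix for a molecule of the intermembrane space, and many are named for what they move. The ADP/ATP and phosphate carriers feed ATP synthase and send its product to the cytosol. Others link the citric acid cycle, the urea cycle, fatty acid oxidation and amino acid breakdown to the cytosol, and others bring in the nucleotides, cofactors and iron that the organelle needs. Carriers are coded in the nucleus, made in the cytosol and inserted into the inner membrane by the TIM22 translocase. Several relatives are restricted to a tissue such as testis, brain or liver. The family numbering also covers the uncoupling proteins UCP1, UCP2 and UCP3 and the homologues MTCH1 and MTCH2, which carry other symbols and are therefore not among the 48.

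Library totals ran from 21422976 to 25169713 counts, and 15336 genes passed the filter on low counts and were tested. The share of counts on the mitochondrial chromosome was 9.62% and 9.37% in the Fer knockdown-labelled libraries, against 16.9% and 19.4% in the control libraries. Of the 13 mRNAs made from that chromosome, 12 passed the adjusted threshold as lower in the Fer knockdown-labelled libraries, and the median log2 fold change over all 13, each below 0, was -1.12. The median absolute log2 difference between the 2 replicates was 0.105 for the Fer knockdown label and 0.224 for the control label over all tested genes. The airway epithelial markers KRT8 and KRT18, keratins of simple epithelia, averaged 1837 and 774 CPM in the Fer knockdown-labelled libraries and 1848 and 878 CPM in the control libraries. The groups did not overlap for CDH1 and EPCAM, adhesion proteins of epithelia with log2 fold changes of 0.45 and 0.46. Nor did they overlap for the keratin KRT7 at -0.40, MUC5AC at 0.19 and SFTPC at 0.50. The other tested airway markers, KRT8, KRT18, KRT19 and FOXJ1, overlapped. Of all tested genes 49.2% did not overlap, so no more is read from these markers. None of the 9 tested airway markers passed the adjusted threshold. NKX2-1, a lung lineage factor, was at 0, and KRT5 and TP63 of basal cells, SCGB1A1 of club cells and SFTPC of alveolar cells were each below 1 CPM. Of the fibroblast markers, LUM and DCN were at 0 and THY1 was at 281 CPM in the Fer knockdown-labelled libraries, against 479 CPM in the control libraries (adjusted p = 0.0302). The log2 fold changes of COL1A1, COL3A1 and PDGFRB were -0.46, 1.39 and 0.01, and none of these passed. The 8 fibroblast markers, of which THY1 was the most abundant, summed to 390 and 354 CPM in the Fer knockdown-labelled libraries, against 608 and 574 CPM in the control libraries. CD3E was at 0, and the immune, endothelial and muscle lists summed to at most 25.2, 2.98 and 2.97 CPM in any library. The parts of these markers and of the mitochondrial share in the carrier values were not tested. In bulk RNA, fewer cells of a type and less RNA per cell cannot be told apart.

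BEAS-2B cells had RNA of nearly the whole carrier family. Of the 48 genes, 40 were at or above 1 CPM in every library, and by the mean over the 4 libraries 6 lay at 100 CPM or more, 26 between 10 and 100 CPM, 10 between 1 and 10 CPM and 5 below 1 CPM. SLC25A52 alone had no count in any library. A count of 0 allows a level of up to 3 counts, which is 0.132 and 0.113 CPM in the Fer knockdown-labelled libraries and 0.147 and 0.138 CPM in the control libraries, for counting error only. Together the members held 53442 and 62059 counts in the Fer knockdown-labelled libraries, against 46410 and 44910 counts in the control libraries. The share of all counts was 0.249% and 0.247% with the Fer knockdown label and 0.213% and 0.196% in the control libraries. All counts include those on the mitochondrial chromosome, whose share differed between the groups as given above. On the TMM scale the log2 ratio of the summed level was 0.11, against 0.28 with library totals alone.

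The 6 genes at 100 CPM or more were SLC25A3, the phosphate carrier; SLC25A5, the ADP/ATP carrier of growing cells; SLC25A1, the citrate carrier; SLC25A29, a carrier of basic amino acids; SLC25A39, a glutathione carrier; and SLC25A37, mitoferrin 1, which brings iron in. The first 5 of these together made up 57.7% and 57.3% of the members' CPM in the Fer knockdown-labelled libraries, against 55.5% and 52.5% in the control libraries. Per kilobase of the deposited gene length, the order at the top was SLC25A5, SLC25A1, SLC25A39, SLC25A3, SLC25A11, SLC25A28, SLC25A29 and SLC25A22. SLC25A5 stood at 225 and 216 CPM per kilobase in the Fer knockdown-labelled libraries, against 187 and 164 CPM per kilobase in the control libraries. That level was above 99.1% of all tested genes. SLC25A1 stood at 135 CPM per kilobase in both libraries labelled Fer knockdown, against 129 and 97.2 CPM per kilobase in the control libraries, above 98.4% of tested genes. In each library SLC25A5 was higher than SLC25A1. On CPM, without regard to length, SLC25A3 was the highest at a mean of 367, against 308 for SLC25A5 and 248 for SLC25A1. The deposited lengths of SLC25A3, SLC25A5 and SLC25A1 were 8896, 1555 and 1999 bases, so their order depends on the length used. SLC25A39 and SLC25A3 averaged 41.3 and 45.2 CPM per kilobase in the Fer knockdown-labelled libraries and 42.4 and 37.3 CPM per kilobase in the control libraries, so the order of these neighbours turned with the group. What the deposited length covers is not stated; if it is the length of all exons, as featureCounts gives it, the level of genes with many long isoforms is understated.

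**Figure D1:**
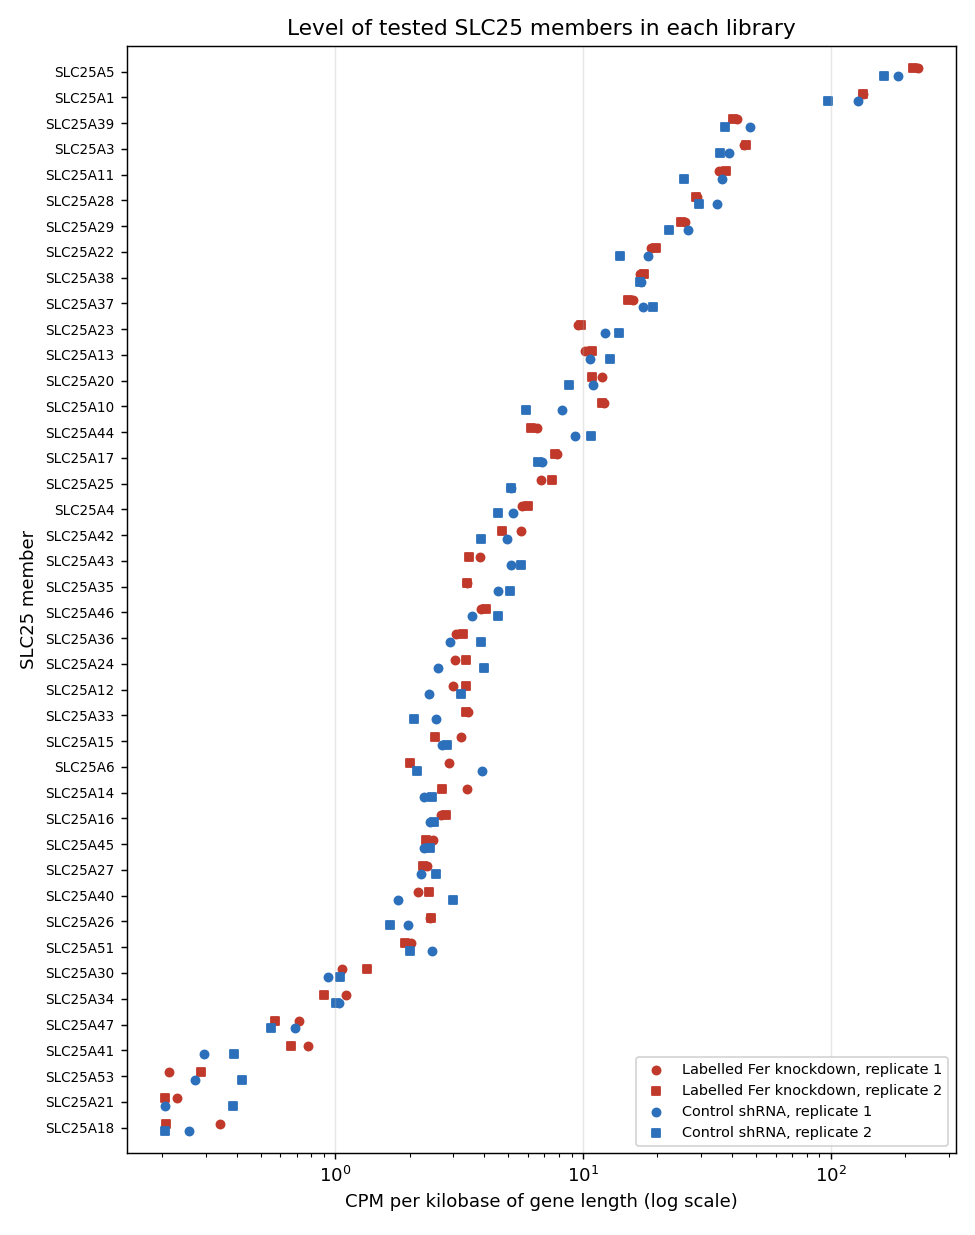
Level of tested SLC25 members in each library, as CPM per kilobase of deposited gene length on a log axis, in order of the mean level, with red points for the Fer knockdown-labelled libraries and blue points for the control libraries. On this scale SLC25A5 and SLC25A1 stand above the rest of the family in all 4 libraries. On CPM, without regard to length, SLC25A3 is the highest.

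The tissue-restricted relatives were low or absent. SLC25A31, the ADP/ATP carrier of testis, had 0 and 0 counts in the Fer knockdown-labelled libraries, against 0 and 1 counts in the control libraries. SLC25A2, the second ornithine carrier, had 1 and 0 counts in the Fer knockdown-labelled libraries, against 0 and 0 counts in the control libraries, and SLC25A48, a choline carrier, had 0 and 0 counts in the Fer knockdown-labelled libraries, against 4 and 0 counts in the control libraries. SLC25A52, a close relative of the NAD carrier SLC25A51, had no count. Each of these levels is at or near the limit that a count of 0 allows. SLC25A47, known from liver, ran from 1.01 to 1.32 CPM over the 4 libraries, and SLC25A18, the second glutamate carrier, from 0.968 to 1.63 CPM. The brain relatives SLC25A14 and SLC25A27 were higher, at 6.85 to 10.3 CPM and at 7.29 to 8.39 CPM.

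2 low values rest on loci where reads are hard to assign. SLC25A32, the folate and flavin carrier, had 1 and 1 counts in the Fer knockdown-labelled libraries, against 1 and 0 counts in the control libraries. In GENCODE 29, 80.8% of its exon bases lie in exons of other genes, 69.7% in those of AC012213.5, which is not among the deposited genes. Read counters commonly leave out reads over 2 genes, but only where the annotation used for counting holds both. The release of that annotation is not stated, and whether reads were left out here was not tested. SLC25A6, the third ADP/ATP carrier, lies in a pseudoautosomal region with an X and a Y copy of the same sequence, and had 203 and 165 counts in the Fer knockdown-labelled libraries, against 249 and 144 counts in the control libraries. CD99, a gene of the same region named after its values were seen, had 2093 and 202 counts in the Fer knockdown-labelled libraries, against 1868 and 2403 counts in the control libraries. PPP2R3B of that region also varied widely between replicates. It had 319 and 43 counts in the Fer knockdown-labelled libraries, against 213 and 79 counts in the control libraries. Not every gene of that region varied so widely. PLCXD1 had 88 and 88 counts in the Fer knockdown-labelled libraries, against 68 and 67 counts in the control libraries. Given the loci, the near absence of SLC25A32 and the low level of SLC25A6 are uncertain.

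The promoters of 40 of the 48 members were matched by symbol in a table of 27305 RefSeq promoters on GRCh38.p14, of which the 250 bases before the start were read. The windows of 4 members at the ends of the range of levels are shown 5′ to 3′ on the strand of the gene, with each CG dinucleotide in capitals: SLC25A5 (chrX:119468194-119468443, plus strand) and SLC25A1 (chr22:19178737-19178986, minus strand), the highest per kilobase, SLC25A18 (chr22:17563248-17563497, plus strand), the lowest per kilobase of the tested members with a window, and SLC25A31 (chr4:127730150-127730399, plus strand), with 1 count in all.
SLC25A5: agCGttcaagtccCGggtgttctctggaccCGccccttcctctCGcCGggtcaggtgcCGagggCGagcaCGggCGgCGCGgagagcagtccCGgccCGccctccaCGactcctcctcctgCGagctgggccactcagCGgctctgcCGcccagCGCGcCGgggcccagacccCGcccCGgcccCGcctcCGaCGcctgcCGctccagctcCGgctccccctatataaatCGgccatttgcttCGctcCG
SLC25A1: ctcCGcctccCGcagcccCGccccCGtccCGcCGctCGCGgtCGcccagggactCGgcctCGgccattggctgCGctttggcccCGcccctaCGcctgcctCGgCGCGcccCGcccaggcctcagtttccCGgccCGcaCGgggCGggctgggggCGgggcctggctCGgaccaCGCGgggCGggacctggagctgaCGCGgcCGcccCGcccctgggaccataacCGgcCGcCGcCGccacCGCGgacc
SLC25A18: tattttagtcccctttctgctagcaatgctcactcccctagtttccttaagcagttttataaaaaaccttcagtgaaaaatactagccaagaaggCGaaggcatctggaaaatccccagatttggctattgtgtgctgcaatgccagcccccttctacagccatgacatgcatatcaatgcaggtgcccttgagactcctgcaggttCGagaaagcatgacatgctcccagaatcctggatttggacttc
SLC25A31: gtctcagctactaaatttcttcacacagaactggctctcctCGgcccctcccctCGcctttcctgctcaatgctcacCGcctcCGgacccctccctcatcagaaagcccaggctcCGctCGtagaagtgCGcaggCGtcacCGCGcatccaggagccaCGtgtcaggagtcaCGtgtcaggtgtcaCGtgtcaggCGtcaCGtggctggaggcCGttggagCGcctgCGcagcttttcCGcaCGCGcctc
SLC25A5 held 30 and SLC25A1 37 CG dinucleotides, against 2 in SLC25A18 and 21 in SLC25A31. The windows shown were picked after the values were seen. SLC25A18 was the tested member with the fewest CG, and SLC25A31 the untested member with the most. Their contrast was thus set by the choice and says nothing of how CG goes with level. The other untested members with a window, SLC25A48 and SLC25A52, held 13 each. Over the matched members the median number was 34 (range 30 to 41, n = 5) in those at 100 CPM or more, 21 (4 to 42, n = 23) between 10 and 100 CPM, 12 (2 to 35, n = 9) between 1 and 10 CPM, and 13 and 21 in the 2 matched members below 1 CPM. The median over all promoters of the table was 11. The ranges overlap, and the classes were not tested against each other. On both strands of the window, CCAAT occurred in 18 of the 40 members (45%), against 33% of all promoters. TATAAA occurred in SLC25A5, SLC25A26 and SLC25A18 (7.5%, against 11.1% of all), and the ETS motif CCGGAAGT in SLC25A17, SLC25A46 and SLC25A24 (7.5%, against 3.64% of all). These are matches of letters and not binding sites.

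The comparison of the Fer knockdown-labelled libraries with the control libraries found no carrier past the threshold. Of the 48 members, 43 passed the filter on low counts, the others being SLC25A2, SLC25A31, SLC25A32, SLC25A48 and SLC25A52. None of the 43 reached an adjusted p under 0.05 in edgeR's quasi-likelihood test with Benjamini-Hochberg adjustment over all tested genes. Of all 15336 tested genes, 0.646% did, 0.280% as higher and 0.365% as lower in the Fer knockdown-labelled libraries. At an unadjusted p under 0.05 there were 11 members, 7 higher and 4 lower, which is 25.6% of the 43, against 17.7% of all tested genes (8.95% higher and 8.77% lower). The members were not tested as a set, and 25.6% is not read as different from 17.7%.

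The 2 libraries of the groups did not overlap for 20 of the 43 members, or 46.5%, against 49.2% of all tested genes. In 14 members (32.6%) both libraries labelled Fer knockdown lay above both control libraries, against 25.8% of all genes, and in 6 (14.0%) below, against 23.4%. The fitted log2 fold change was above 0 for 25 members (58.1%), against 51.9% of all genes. Its median was 0.05 over the members and 0.01 over all tested genes, with quartiles of -0.13 and 0.25 for the members and -0.19 and 0.23 for all genes. Single members ran from -0.66 for SLC25A44 to 1.05 for SLC25A41, with a median SE of 0.17. For 38 of the 43 the 95% interval of the fold change stayed within 2-fold in either direction, and for 19 within 1.5-fold. The summed level of the family was 2353 and 2337 CPM in the Fer knockdown-labelled libraries, against 2270 and 2071 CPM in the control libraries, a log2 ratio of 0.11. With 2 libraries against 2, an exact two-sided permutation test of such a sum cannot give a p below 0.333, and none was run.

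**Figure D2:**
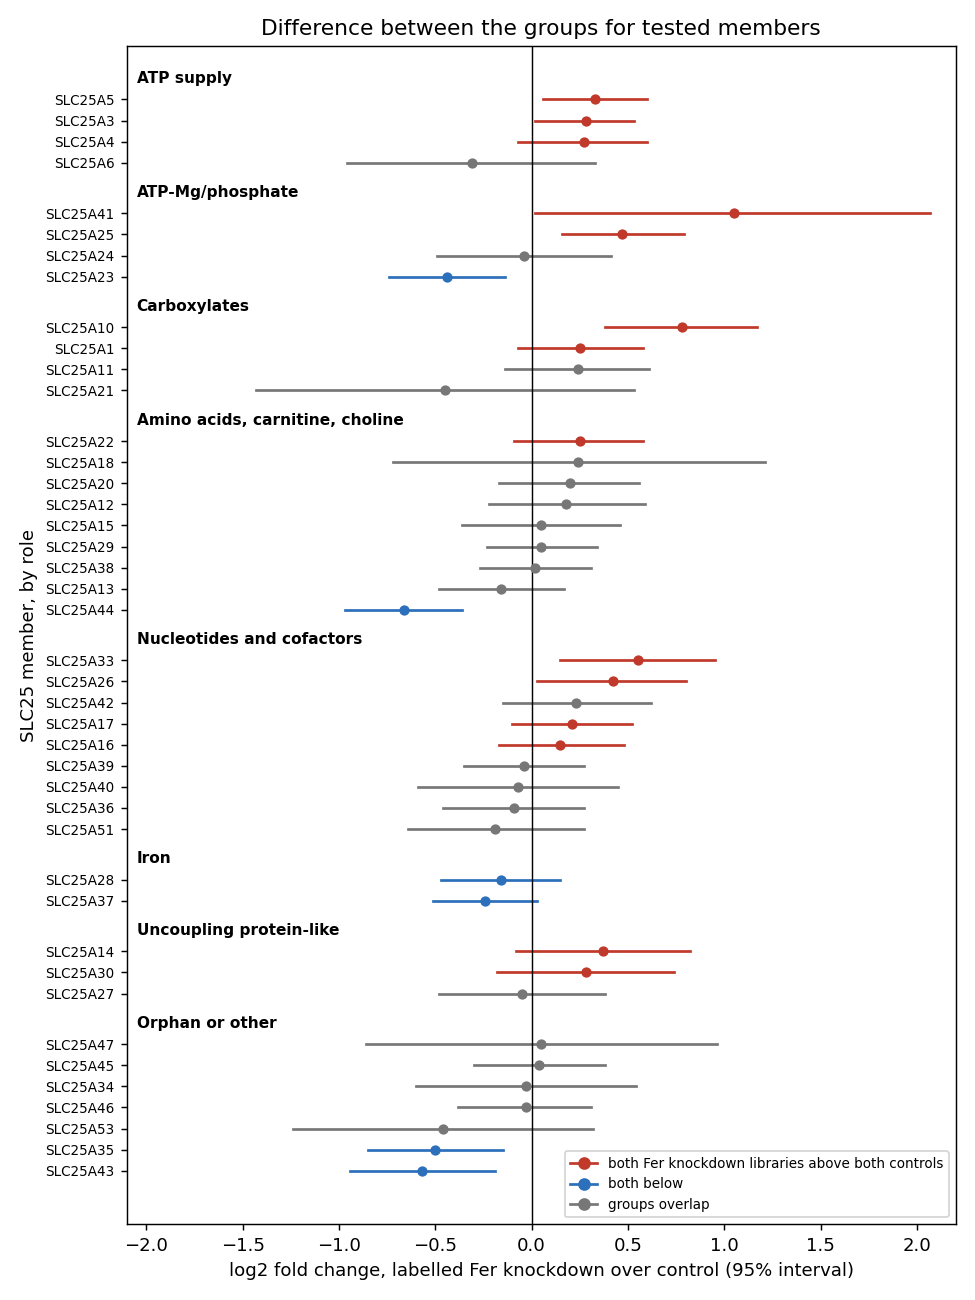
Fitted log2 fold change (libraries labelled Fer knockdown over control libraries) of tested SLC25 members with 95% intervals. Values run from -0.66 for SLC25A44 to 1.05 for SLC25A41, no member passed the adjusted threshold, and most intervals include 0.

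The number of members past the threshold depended on the tool and on the control libraries. DESeq2 called 2, SLC25A44 as lower and SLC25A10 as higher, with 3.78% of all genes called. Scaling by library totals alone gave 2 members (2.89% of all genes), testing without a filter 2 (4.14%), and removing a trend on gene length 2 (4.48%). DESeq2 size factors in edgeR (0.861%), limma-voom (1.16%) and leaving out the mitochondrial chromosome (0.498%) gave 0, and a fit with the replicate number as a block, whose numbers are not known to pair the libraries, gave 3 (6.46%). Without Fer knockdown replicate 1 or 2 there was again none (0.713% and 0.352% of genes). Without control replicate 1 there were 22 members, 13 higher and 9 lower, with 29.5% of all genes called, and without control replicate 2 there were 12, 5 higher and 7 lower, with 20.6% called. In these fits the remaining control library is assumed to vary like the pair labelled Fer knockdown, whose median difference over the tested members was 0.0863, against 0.231 between the control libraries.

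Among the carriers that supply ATP, 3 of 4 tested members lay above the control libraries in both libraries labelled Fer knockdown, against 25.8% of all tested genes, and none passed the adjusted threshold. The group summed to 784 and 777 CPM in the Fer knockdown-labelled libraries, against 673 and 602 CPM in the control libraries. SLC25A5, on the X chromosome, had 7948 and 8905 counts or 350 and 335 CPM in the Fer knockdown-labelled libraries, against 5945 and 5526 counts or 291 and 255 CPM in the control libraries. The groups did not overlap, and the log2 fold change was 0.33 ± 0.12 (95% interval 0.06 to 0.60; adjusted p = 0.195). SLC25A5 has many processed copies in the genome, but the 9 that the table lists held only 27 and 27 counts in the Fer knockdown-labelled libraries, against 13 and 13 counts in the control libraries. SLC25A3, on chromosome 12, had 397 and 407 CPM in the Fer knockdown-labelled libraries, against 345 and 318 CPM in the control libraries, also without overlap. Its log2 fold change was 0.28 ± 0.11 (95% interval 0.02 to 0.53; adjusted p = 0.244). Both genes passed the threshold only when control replicate 1 or control replicate 2 was left out. SLC25A4, the ADP/ATP carrier known from heart and muscle, had 27.4 and 29 CPM in the Fer knockdown-labelled libraries, against 25.1 and 21.8 CPM in the control libraries (log2 fold change 0.27, adjusted p = 0.388). Per kilobase, SLC25A5 made up 96.3% and 96.4% of the summed level of the ADP/ATP carriers in the Fer knockdown-labelled libraries, against 95.3% and 96.1% in the control libraries, with the limit on SLC25A6 given above. SLC25A4 made up 2.43% to 2.69% over the 4 libraries and its shares overlapped between the groups. Of the exon bases of SLC25A5, 15.1% overlap other genes, chiefly SLC25A5-AS1.

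The calcium-regulated ATP-Mg/phosphate carriers, which set the pool of adenine nucleotides in the matrix, did not share a direction. SLC25A25, on chromosome 9, had 757 and 985 counts or 33.3 and 37.1 CPM in the Fer knockdown-labelled libraries, against 518 and 551 counts or 25.3 and 25.4 CPM in the control libraries. The groups did not overlap, with a log2 fold change of 0.47 ± 0.14 (95% interval 0.16 to 0.79; adjusted p = 0.136). SLC25A23, on chromosome 19, lay on the other side, at 1064 and 1272 counts or 46.9 and 47.9 CPM in the Fer knockdown-labelled libraries, against 1231 and 1480 counts or 60.2 and 68.3 CPM in the control libraries. Its log2 fold change was -0.44 ± 0.13 (95% interval -0.74 to -0.14; adjusted p = 0.14). Of the 12 alternative fits, SLC25A25 passed the threshold in 3 and SLC25A23 in 2. Per kilobase, SLC25A23 made up 47.5% and 45.9% of the summed level of the ATP-Mg/phosphate carriers in the Fer knockdown-labelled libraries, against 60.5% and 59.4% in the control libraries, and SLC25A25 made up 33.4% and 35.2% in the Fer knockdown-labelled libraries, against 25.2% and 21.9% in the control libraries. The replicates of each group lay within a few points of each other in both shares, and the groups did not overlap; the shares were not tested. Of the exon bases of SLC25A25, 16.2% overlap other genes, chiefly SLC25A25-AS1. SLC25A24 (log2 fold change -0.04) overlapped between the groups. SLC25A41, which lacks the calcium-binding part, had the highest fold change and the fewest reads of the 43 tested members, 29 and 29 counts in the Fer knockdown-labelled libraries, against 10 and 14 counts in the control libraries (log2 fold change 1.05 ± 0.46, adjusted p = 0.273).

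Of the carriers of carboxylates, SLC25A10 had the smallest adjusted p among all members with a positive fold change. SLC25A10, the dicarboxylate carrier on chromosome 17, exchanges malate and succinate for phosphate. It had 725 and 837 counts or 31.9 and 31.5 CPM in the Fer knockdown-labelled libraries, against 442 and 335 counts or 21.6 and 15.4 CPM in the control libraries. Both libraries labelled Fer knockdown were above both control libraries, which differed more from each other. Its log2 fold change was 0.78 ± 0.18 (95% interval 0.38 to 1.17; adjusted p = 0.0764), short of the threshold. Over the 12 alternative fits it ran from 0.53 to 1.03, with adjusted p from 3.31e-14 to 0.441, and the gene was called in 7: library totals alone, no filter, DESeq2, the replicate block, the length trend and without either control replicate. In GENCODE 29, 46.6% of its exon bases overlap AC139530.2, which is not among the deposited genes. The count of SLC25A10 may thus hold reads of that gene. It would lack shared reads only if the annotation used for counting held both genes, which is not stated. SLC25A1, the citrate carrier of chromosome 22 that feeds lipid synthesis, had 270 and 269 CPM in the Fer knockdown-labelled libraries, against 258 and 194 CPM in the control libraries. The groups did not overlap, but control replicate 1 was close to the Fer knockdown-labelled libraries, and the log2 fold change was 0.25 ± 0.14 (adjusted p = 0.399). With control replicate 2 left out it was 0.04, and 0.47 without control replicate 1, where the gene was called (adjusted p = 1.25e-09, against up to 1 over the alternatives). SLC25A11, the oxoglutarate/malate carrier of the malate-aspartate shuttle, had 87.7 and 93.6 CPM in the Fer knockdown-labelled libraries, against 90.5 and 63.4 CPM in the control libraries, with overlap (log2 fold change 0.24 ± 0.17, adjusted p = 0.512). Without control replicate 2 its value was -0.02. SLC25A21, the oxodicarboxylate carrier, was at 0.978 to 1.84 CPM over the 4 libraries.

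Among the carriers of amino acids, carnitine and choline, SLC25A44 had the smallest p. SLC25A44, on chromosome 1, brings branched-chain amino acids into mitochondria. It had 1083 and 1191 counts or 47.7 and 44.8 CPM in the Fer knockdown-labelled libraries, against 1382 and 1714 counts or 67.6 and 79.0 CPM in the control libraries. The means were 46.3 ± 2.01 CPM with the Fer knockdown label and 73.3 ± 8.1 CPM in the control libraries (SD, n = 2 each), and the groups did not overlap. The log2 fold change was -0.66 ± 0.14 (95% interval -0.97 to -0.36), and the adjusted p of 0.0564, the smallest of the family, missed the threshold. Over the 12 alternatives the fold change ran from -0.78 to -0.50 and the adjusted p from 9.54e-14 to 0.791, with a call in 6: no filter, DESeq2, the replicate block, the length trend and without either control replicate. The aspartate/glutamate carriers SLC25A12 and SLC25A13, the other step of the malate-aspartate shuttle, had log2 fold changes of 0.18 (adjusted p = 0.648) and -0.16 (adjusted p = 0.619), and each overlapped between the groups. Per kilobase, SLC25A12 made up 22.6% and 23.7% of this pair in the Fer knockdown-labelled libraries, against 18.3% and 20% in the control libraries.

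SLC25A22, the main glutamate carrier here, had 86.6 and 90.4 CPM in the Fer knockdown-labelled libraries, against 84.5 and 64.6 CPM in the control libraries (log2 fold change 0.25 ± 0.15, adjusted p = 0.431). With control replicate 2 left out it was 0.04, and 0.45 without control replicate 1, where the gene was called (adjusted p = 2.62e-05, against up to 1 over the alternatives). It made up 98.2% and 99% of the level per kilobase of the glutamate carriers in the Fer knockdown-labelled libraries, against 98.6% in each control library. SLC25A29 had 192 and 185 CPM in the Fer knockdown-labelled libraries, against 197 and 166 CPM in the control libraries, and its log2 fold change of 0.05 ± 0.13 (adjusted p = 0.873) became -0.09 without control replicate 2. SLC25A38, which carries glycine for haem synthesis, was among the steadiest members, at 45.3 and 46.8 CPM in the Fer knockdown-labelled libraries, against 45.8 and 45.1 CPM in the control libraries (log2 fold change 0.02 ± 0.13). SLC25A20, the carnitine/acylcarnitine carrier of fatty acid oxidation, had a log2 fold change of 0.20, and SLC25A15, the first ornithine carrier, one of 0.05; the groups overlapped for both.

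**Figure D3:**
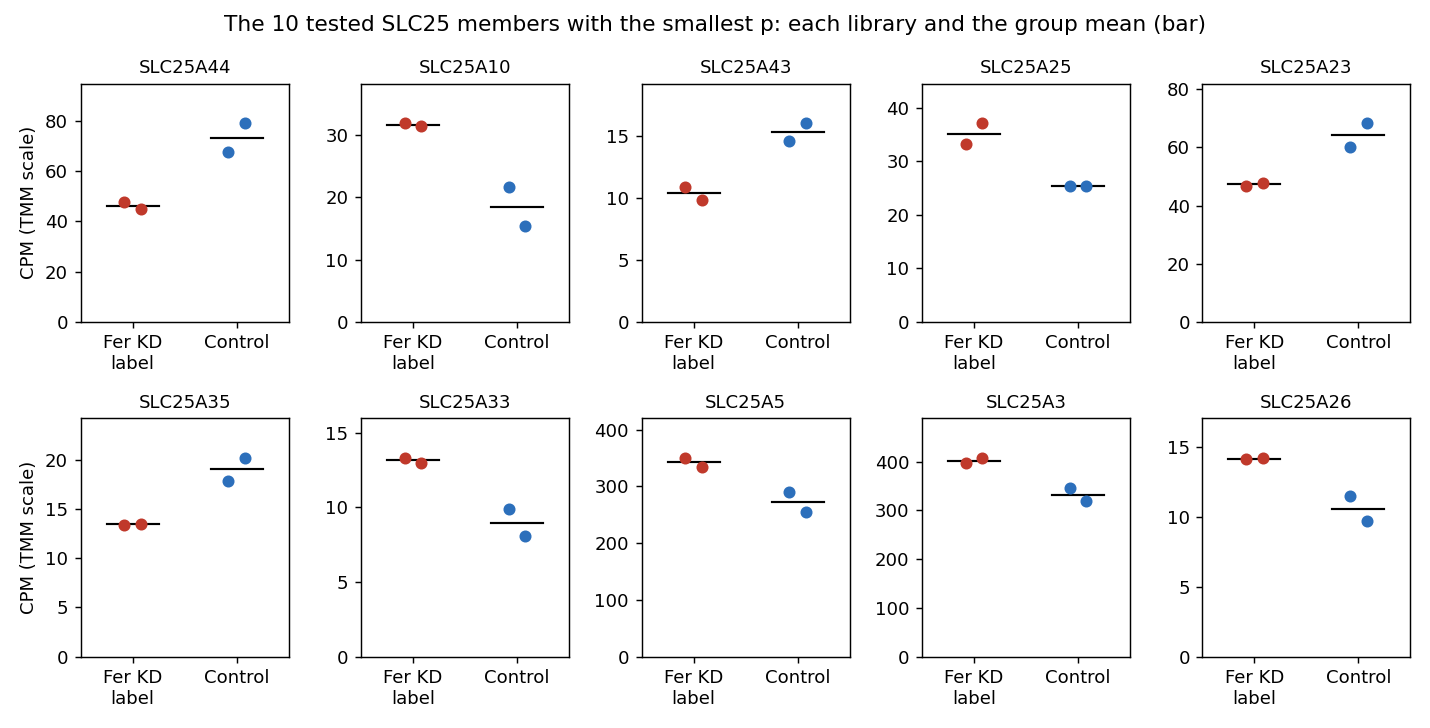
Level in each library, in CPM on the TMM scale, of the 10 tested SLC25 members with the smallest p, with libraries labelled Fer knockdown left of control libraries and a bar at each group's mean. The groups do not overlap for any of the 10, and no member passed the adjusted threshold. The 10 were picked by p, which favours groups without overlap, so their lack of overlap says nothing of the family. The groups did not overlap for 46.5% of the 43 tested members and for 49.2% of all tested genes.

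Of the 10 tested carriers of nucleotides and cofactors, 4 lay above both control libraries in both libraries labelled Fer knockdown and none below, against 25.8% above and 23.4% below over all tested genes; no more is read from so few. SLC25A33, which carries pyrimidine nucleotides, had 302 and 345 counts or 13.3 and 13 CPM in the Fer knockdown-labelled libraries, against 202 and 175 counts or 9.88 and 8.07 CPM in the control libraries. The log2 fold change was 0.55 ± 0.18 (95% interval 0.15 to 0.95; adjusted p = 0.162). Its relative SLC25A36 overlapped between the groups (log2 fold change -0.09), and per kilobase SLC25A33 made up 52.9% and 50.5% of the pair in the Fer knockdown-labelled libraries, against 46.8% and 35.1% in the control libraries. SLC25A26, which brings in S-adenosylmethionine for methylation inside the organelle, had 14.1 and 14.2 CPM in the Fer knockdown-labelled libraries, against 11.5 and 9.68 CPM in the control libraries. Its log2 fold change was 0.42 ± 0.17 (95% interval 0.03 to 0.80; adjusted p = 0.247), and 15.5% of its exon bases overlap other genes, chiefly LRIG1. Both passed the threshold only without control replicate 1. SLC25A16, linked to coenzyme A import, and SLC25A17, a carrier of peroxisomes rather than mitochondria, were the other members without overlap, at log2 fold changes of 0.15 and 0.21. SLC25A39, the glutathione carrier, had 148 and 143 CPM in the Fer knockdown-labelled libraries, against 167 and 132 CPM in the control libraries, and its log2 fold change of -0.04 ± 0.14 (adjusted p = 0.924) turned to 0.13 with library totals and 0.14 without control replicate 1. Its relative SLC25A40 was lower in every library, and SLC25A39 made up 95.1% and 94.4% of the level per kilobase of the pair with the Fer knockdown label, against 96.3% and 92.6% in the control libraries. SLC25A42, a coenzyme A carrier, had a log2 fold change of 0.23 and SLC25A51, the NAD carrier, one of -0.19, each with overlap.

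The 2 mitoferrins lay below the control libraries, as did 23.4% of all tested genes, and neither passed the threshold. SLC25A37 had 127 and 122 CPM in the Fer knockdown-labelled libraries, against 140 and 154 CPM in the control libraries (log2 fold change -0.24 ± 0.12, adjusted p = 0.336). SLC25A28, mitoferrin 2, had 52.6 and 52.2 CPM in the Fer knockdown-labelled libraries, against 63.8 and 53.6 CPM in the control libraries, a narrow gap (log2 fold change -0.16 ± 0.14, adjusted p = 0.589) that was 0.00 with library totals alone. Per kilobase SLC25A28 was the more abundant, at 64.5% and 65.2% of the pair in the Fer knockdown-labelled libraries, against 66.5% and 60.3% in the control libraries. The share of SLC25A28 thus overlapped between the groups.

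The relatives of the uncoupling proteins were low. SLC25A14 had 10.3 and 8.09 CPM in the Fer knockdown-labelled libraries, against 6.85 and 7.38 CPM in the control libraries, without overlap (log2 fold change 0.37, adjusted p = 0.381). SLC25A30 had a log2 fold change of 0.28 and SLC25A27 one of -0.05.

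The 7 orphan or other members all were tested, and 2 lay below the control libraries in both libraries labelled Fer knockdown, a share near the 23.4% of all tested genes. SLC25A43, an orphan carrier on the X chromosome, had 247 and 261 counts or 10.9 and 9.83 CPM in the Fer knockdown-labelled libraries, against 298 and 348 counts or 14.6 and 16.0 CPM in the control libraries. The log2 fold change was -0.57 ± 0.17 (95% interval -0.94 to -0.19; adjusted p = 0.132), and it was called in 3 of the 12 alternatives. SLC25A35, an orphan on chromosome 17, had 305 and 358 counts or 13.4 and 13.5 CPM in the Fer knockdown-labelled libraries, against 366 and 437 counts or 17.9 and 20.2 CPM in the control libraries. Its log2 fold change was -0.50 ± 0.16 (95% interval -0.85 to -0.15; adjusted p = 0.15). Of its exon bases, 33.2% overlap RANGRF, which held 47 and 80 counts in the Fer knockdown-labelled libraries, against 40 and 30 counts in the control libraries, so reads of the overlap are uncertain. SLC25A46, which sits in the outer membrane and acts in mitochondrial dynamics, had a log2 fold change of -0.03, and SLC25A45 one of 0.04. SLC25A34, SLC25A47 and SLC25A53 were below 4 CPM in every library.

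**Figure D4:**
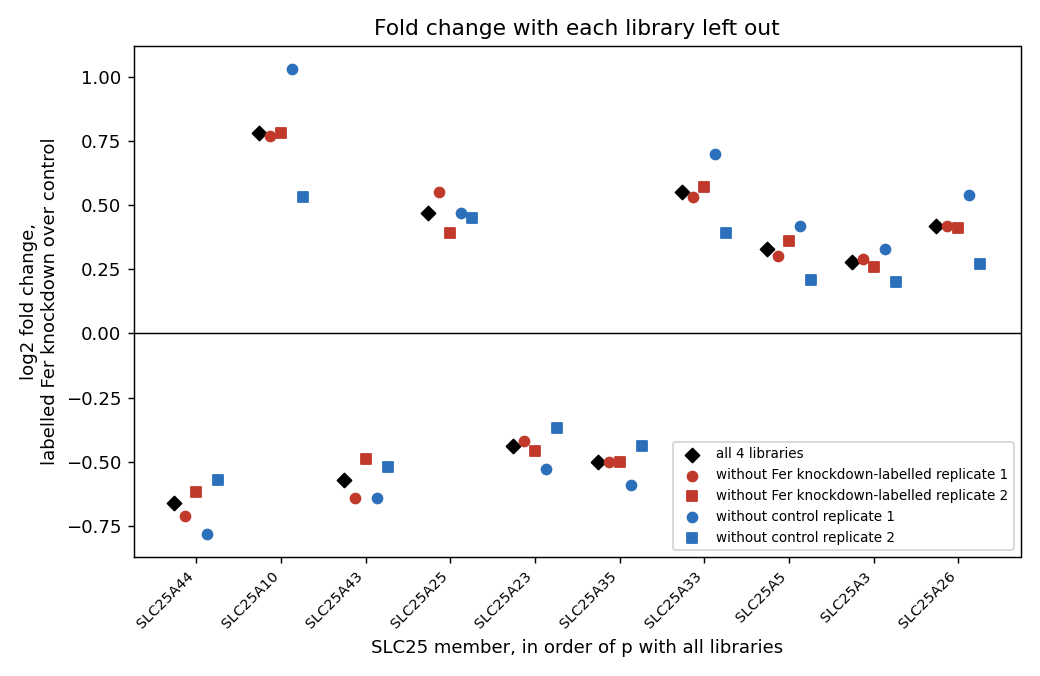
Log2 fold change of the 10 tested SLC25 members with the smallest p, over all 4 libraries and with each library left out in turn. SLC25A10 runs from 0.53 without control replicate 2 to 1.03 without control replicate 1. The members were picked by p, and their groups do not overlap, so that staying on one side of 0 says nothing of stability.

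The 5 relatives with other symbols had no member past the threshold. MTCH1, which sits in the outer membrane, was the highest of them at 463 CPM in the Fer knockdown-labelled libraries, against 395 CPM in the control libraries (log2 fold change 0.23, adjusted p = 0.402). UCP2 stood at 126 CPM in the Fer knockdown-labelled libraries, against 137 CPM in the control libraries, UCP3 had a log2 fold change of -0.30 (adjusted p = 0.617), and UCP1, the uncoupling protein of brown fat, had 0 and 1 counts in the Fer knockdown-labelled libraries, against 1 and 3 counts in the control libraries.

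Of the 18 genes for the import of carrier proteins, 17 were tested and 1 passed the adjusted threshold, as higher. Over all tested genes 0.280% did so. Of the 17, 12 had a fold change above 0, against 51.9% of all tested genes. At an unadjusted p under 0.05 in the same edgeR test there were 9, against 17.7% of all tested genes. The list was not tested as a set. TOMM7, a small subunit of the outer membrane translocase, had 2372 and 3532 counts in the Fer knockdown-labelled libraries, against 1037 and 599 counts in the control libraries, a mean of 119 CPM against 39.2 CPM. On the log2 scale the fold change was 1.60 ± 0.25 (adjusted p = 0.0302), and it passed the threshold in all 12 alternatives. The median of the list was 0.23, beside 0.01 for all tested genes, and TOMM6 is listed at 0 in every library. Whether TOMM6 RNA was absent or its reads were not assigned to it was not tested. Of the 25 other transporters of mitochondrial membranes, none of the 24 tested passed, with a median of 0.12. Of these 24, 16 had a fold change above 0 and 8 an unadjusted p under 0.05 in the same edgeR test. TSPO, an outer membrane protein that binds cholesterol, had 131 CPM in the Fer knockdown-labelled libraries, against 79.5 CPM in the control libraries (log2 fold change 0.73, adjusted p = 0.0888), and SMDT1, a subunit of the calcium uniporter, 30.4 CPM in the Fer knockdown-labelled libraries, against 17.3 CPM in the control libraries (log2 fold change 0.82, adjusted p = 0.116).

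Of the 42 enzymes that make or use what the carriers move, none of the 41 tested passed, and the median was 0.04. Of these 41, 25 had a fold change above 0 and 7 an unadjusted p under 0.05 in the same edgeR test. ARG2, the mitochondrial arginase, had a log2 fold change of 0.67 (adjusted p = 0.171), with 37.4% of its exon bases shared chiefly with VTI1B. ALDH1L2, an enzyme of mitochondrial folate metabolism, had one of -0.90 (adjusted p = 0.18). Of 15 regulators of mitochondrial biogenesis, none of the 14 tested passed, and the median was 0.03. Of these 14, 7 had a fold change above 0 and 2 an unadjusted p under 0.05 in that test. ESRRA, a nuclear receptor that drives genes of oxidative metabolism, had 1517 and 1794 counts in the Fer knockdown-labelled libraries, against 900 and 684 counts in the control libraries, with a log2 fold change of 0.83 ± 0.17 (adjusted p = 0.0552). It was called in 8 of the 12 alternatives. PPRC1, a coactivator related to PGC-1, had a log2 fold change of -0.41 (adjusted p = 0.197). Among the 12 lower mRNAs of the mitochondrial chromosome, MT-CO2, MT-ND2, MT-CO3 and MT-ND1, subunits of the respiratory chain, fell by 1.28, 1.27, 1.12 and 1.25 on the log2 scale (adjusted p = 0.00128 each). The 13 summed to 81883 and 80168 CPM in the Fer knockdown-labelled libraries, against 166550 and 190617 CPM in the control libraries.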

How the data were processed

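Polyadenylated RNA of 4 BEAS-2B libraries was sequenced after oligo(dT) selection and Illumina TruSeq preparation, per the labels' protocols. The authors deposited raw read counts per gene with a gene length, per the file headers. HISAT2, featureCounts and DESeq2 and the builds hg19 and mm10 are named in the submitters' processing notes; neither the strand setting nor the annotation release is stated there, so no gene coordinates are printed and overlapping or antisense genes cannot be told apart. The 4 libraries held 21422976 to 25169713 counts. The column of Fer knockdown replicate 1 has a shortened name and was taken to be the knockdown library numbered 1, as no other fits. The 1 row without values was left out.

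The test was that of edgeR 4.0.16 under R 4.3.3 (TMM, filterByExpr, quasi-likelihood test, group as the only term, Benjamini-Hochberg over 15336 genes, threshold 0.05), and the scripts were tested on simulated data. Alternatives used limma 3.58.1, DESeq2 1.42.0, other scaling, no filter, a replicate block, a trend on gene length (lowess span 0.3), the mitochondrial chromosome left out, and each library left out. For FER, the levels, the summed level and the gene lists they were added after seeing the data. CPM used TMM-scaled totals. Level classes, sums and the share of the highest members are on CPM, without regard to gene length. The ranking of members and the shares within sets of like carriers are per kilobase of deposited length. Exon overlaps are from GENCODE 29 on GRCh38.

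Members and lists were chosen with earlier results of these data known. The counts and sums cover all members, but 1 tested member is not reported singly or plotted here. Full values are given for the 10 tested members with the smallest p and the 8 highest per kilobase, and from other lists up to 4 called genes or the 2 with the smallest p.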

Additional observations from a re-analysis of the deposited data

How the results depend on the processing

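No carrier passed the threshold over all 4 libraries, and 2 did with library totals alone, 2 with no filter, 2 with DESeq2, 2 with the length trend removed, and 0 to 22 when a library was left out. The members' median log2 fold change was 0.21 with library totals alone, where all genes also had a median of 0.18, and ran from 0.00 to 0.14 when a library was left out. The log2 ratio of the summed level was 0.28 with library totals and 0.02 to 0.17 with a library left out. The log2 fold change of FER ran from -0.16 to 0.19 with a library left out, being -0.16 without control replicate 1 and -0.08 without Fer knockdown replicate 2.

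The count over all genes, 99, was 443 with library totals (396 higher, 47 lower, against 43 higher and 56 lower), 993 with no filter, 580 with DESeq2, 178 with limma-voom, 687 with the length trend removed, and 56 to 4734 with a library left out. Deviations of same-numbered libraries from their group means had a correlation of 0.0431, so the numbers were not taken to pair the libraries. With them as a replicate block, 990 genes passed, 6.46% of those tested, and 3 carriers. Of the lists, 1 biogenesis regulator, 5 import genes and 2 other transporters passed in that fit.

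Of the biogenesis regulators 1 passed with library totals, no filter, DESeq2, limma-voom or the length trend, and 0 to 4 with a library left out. Of the import genes 4 passed with library totals, no filter or the length trend, 3 with DESeq2, and 1 to 9 with a library left out. Of the other transporters 1 passed with library totals, 2 with no filter, DESeq2 or the length trend, and 0 to 10 with a library left out. The ranges were 0 to 1 for the relatives and 0 to 13 for the partner enzymes. SLC25A11 was at -0.02 and SLC25A29 at -0.09 without control replicate 2, SLC25A28 at 0.00 with library totals, and SLC25A39 at 0.13 with library totals and 0.14 without control replicate 1, where leaving out libraries gave ranges of -0.02 to 0.51 for SLC25A11 and -0.22 to 0.14 for SLC25A39. The cause of these shifts was not tested. With 2 libraries a group, and 1 in a group after leaving one out, the spread is poorly known. Levels and sums were not computed for limma-voom, the block or no filter.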
